A study of Mus musculus with 4 samples.

Results

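The 33 genes described here encode proteins that license and copy DNA and that drive cells through mitosis, from the Mcm helicase subunits and the nucleotide-making enzymes to the mitotic cyclins, kinases and motors. They were taken by gene name from a table of 54532 mouse genes, and all 33 were found and had enough counts to be among the 13932 genes tested. The genes were measured by bulk RNA sequencing of tumour-associated macrophages sorted from glioblastoma xenografts as CD45+, Gr1-, CD11b+ and DAPI- cells. A group of 2 libraries came from macrophages treated with MK-8931 (verubecestat, which blocks the beta-secretase BACE1), and the control group also held 2 libraries. The labels call all the animals GBM mice and give no age, host strain or tumour line. Their treatment entry gives 3 days and names vehicle for the other arm, but it and the RNA entry speak of glioma stem cells, whereas the cell type entry and the design text name sorted macrophages. How the inhibitor reached the macrophages is therefore not settled by the labels, and no transgene or deletion is named for either group. No label ties a library to an animal of its own, so each p-value measures only the spread between these libraries, which may be technical.

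A dividing cell first loads the Mcm helicase onto replication origins in G1, then activates it in S phase while E2F factors switch on the genes for nucleotide synthesis and the replication fork. In G2 and mitosis another wave of genes follows, among them Cdk1 and its cyclins, the Aurora and Polo kinases and the parts of the spindle and kinetochore, many of them under the MuvB complex with B-Myb and Foxm1. Resting cells keep most of both waves silent, so their messenger RNA is widely read as a sign of cycling cells. Tissue macrophages, microglia among them, can renew themselves by division, and cycling macrophages are a known component of tumours.

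Library totals ran from 18257930 to 20179875 counts, with 18258 to 20075 genes detected. The macrophage markers Csf1r, Cd68 and Adgre1 stood at 1034 CPM or more in each library (CPM being counts scaled to library depth, here with TMM, a trimmed mean of gene ratios). All 10 listed macrophage markers were detected, and they summed to 10520 and 10647 CPM with MK-8931 and to 11502 and 14498 CPM in controls, control 2 being the highest. Of the 10 neutrophil markers 9 were tested and all 9 were higher with MK-8931, although the sort had left out Gr1+ cells. These 9 passed edgeR's test at an adjusted p below 0.05, whereas 0.861% of all genes tested passed as higher. The 10 summed to 575 and 967 CPM in the MK-8931 libraries, against 85.6 and 86.1 CPM in controls. The 8 markers of neutrophil precursors, of which only the earlier stages divide, summed to 5.13 and 2.99 CPM with MK-8931 and 2.32 and 0.664 CPM in controls. Elane was at 0 counts in all 4 libraries. A count of 0 allows a level of up to 0.149 to 0.164 CPM, for counting error only.

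Most of the 33 genes were well expressed in both groups, and none of the 33 passed the test for a difference between MK-8931 and control. Their median level was 17.4 FPKM (the authors' unit, scaled for gene length and library depth), against 4.67 FPKM over all genes tested. Cenpf, Cdc6 and Tyms lay below the latter, with means of 2.89, 3.05 and 4.11 FPKM. Together the 33 genes took 0.276% and 0.272% of all counts in the MK-8931 libraries, against 0.278% and 0.285% in controls. Their summed level was 2739 and 2697 CPM with MK-8931 and 2749 and 2937 CPM in controls. Both MK-8931 sums lay below both control sums, and the means of 2718 ± 29.3 and 2843 ± 133 CPM (SD, n = 2 each) gave a ratio of 0.956. The groups overlapped in summed FPKM, at 622 and 637 FPKM with MK-8931 and 629 and 717 FPKM in controls. They also overlapped in CPM without Mki67, Pcna and Top2a, at 1982 and 2010 CPM with MK-8931 and 1981 and 2194 CPM in controls. Control 2 was also the library with the highest macrophage marker sum, whose part in these sums was not tested. Whether reads of the human tumour cells were separated before mouse genes were counted is not given in the sources used here, so their share in these levels was not tested. In bulk RNA, fewer cycling cells and less of each RNA per cycling cell cannot be told apart.

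**Figure D1:**
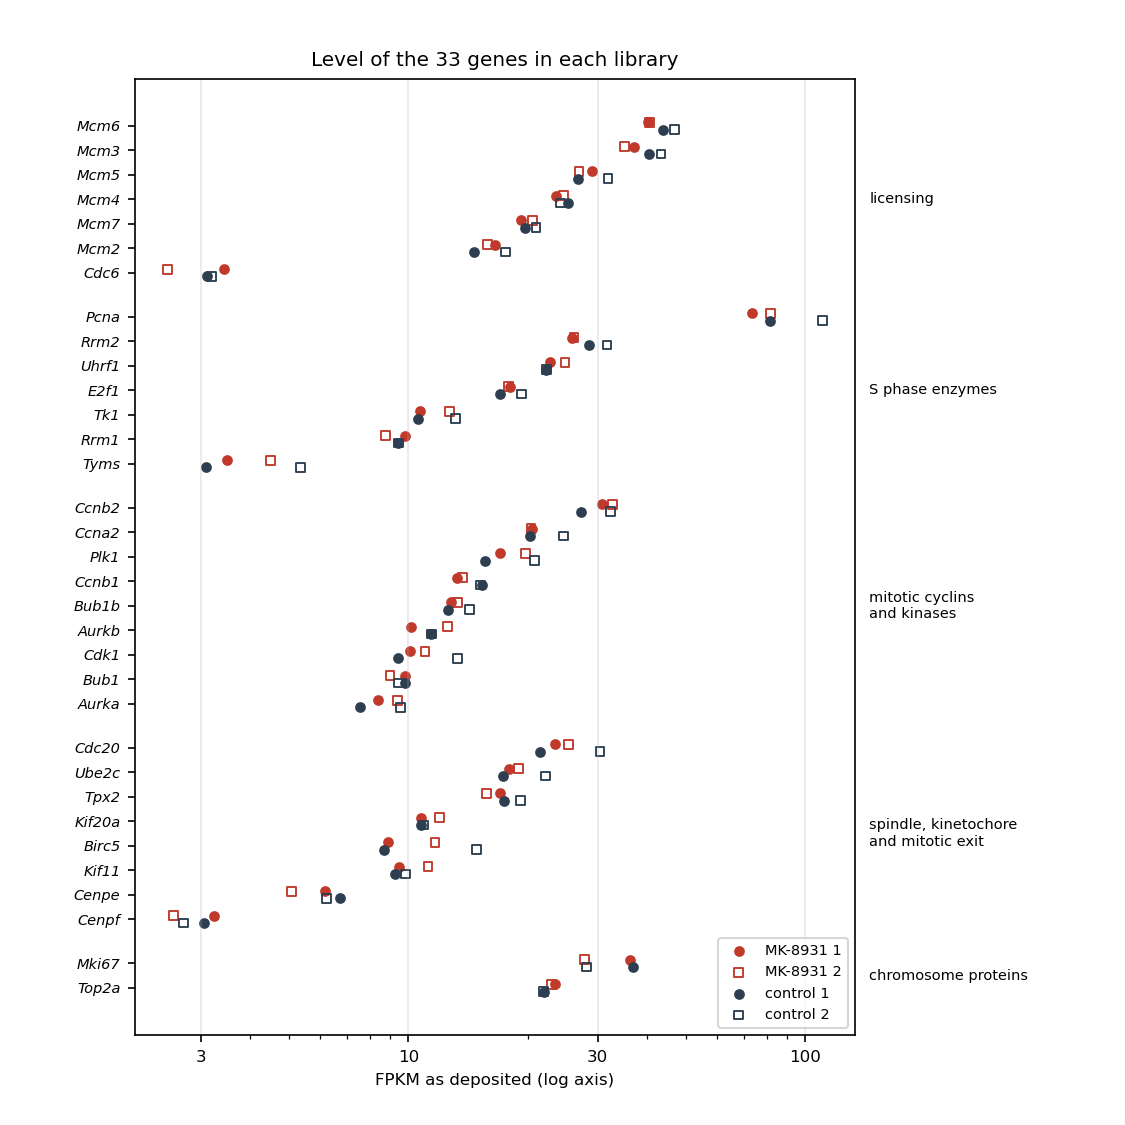
FPKM of each gene in each of the 4 libraries on a log axis, grouped by role and ordered by mean level, with MK-8931 in red and control in dark blue, and circles for replicate 1 and squares for replicate 2. Pcna is the most abundant at 73.5 to 110.4 FPKM, Cenpf, Cdc6 and Tyms are the lowest, and the colours are mixed along most rows.

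By edgeR's quasi-likelihood test with Benjamini-Hochberg adjustment over all 13932 genes, 0 of the 33 genes were higher and 0 were lower at an adjusted p below 0.05. Of all genes tested, 0.998% passed, 0.861% higher and 0.136% lower. At an unadjusted p below 0.05 the count was again 0 of 33, against 10.8% of all genes. DESeq2 and limma-voom also called 0 of 33. The smallest adjusted p was 0.582, for Pcna. The log2 fold changes lay between -0.30 and 0.12 with a median of -0.03, beside a median of -0.00297 over all genes tested. The 95% interval of the fold change stayed within 2-fold in either direction for all 33 genes, which was so for 65.2% of all genes and for 95.3% of the 7030 other genes in the same range of mean CPM. It stayed within 1.5-fold for 30 of the 33, against 37% of all genes and 64.4% of those 7030. The exceptions were Pcna, Tyms and Birc5. These intervals are for single genes, with no correction for their number.

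**Figure D2:**
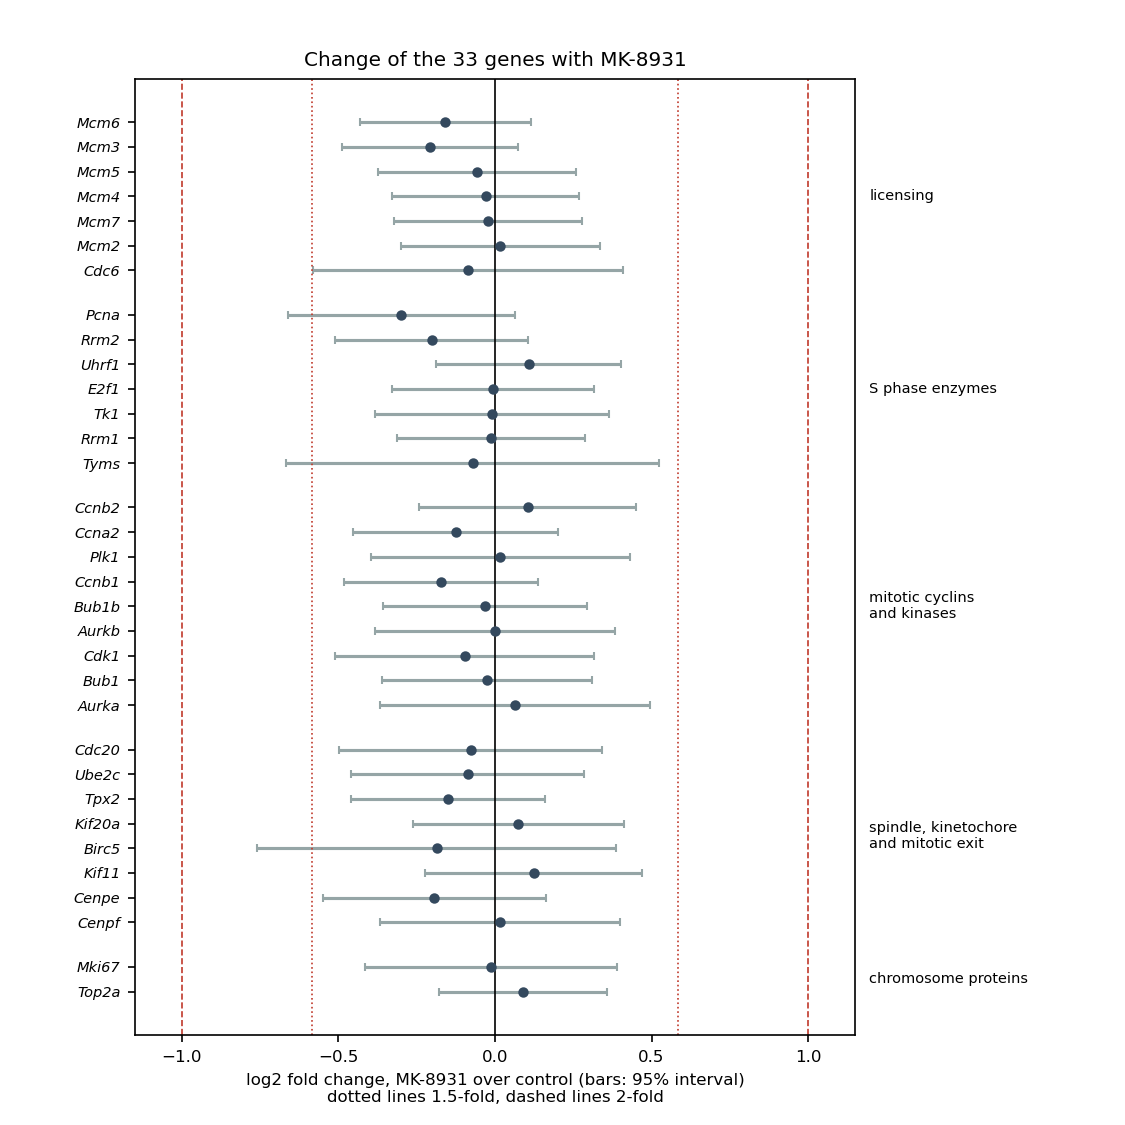
Log2 fold change of each gene, MK-8931 over control, with its 95% interval (n = 2 libraries per group). All 33 intervals lie inside the dashed lines at 2-fold, and those of Pcna, Tyms and Birc5 cross a dotted line at 1.5-fold.

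Of the origin licensing genes, Mcm6 and Mcm3 were among the most abundant of the 33, whereas Cdc6 was among the least. Mcm2 to Mcm7 encode the 6 subunits of the replicative helicase, and Cdc6 encodes the factor that loads it onto origins. Mcm6 (chr1:128331590-128359664, minus strand, GRCm38, as are all positions here) stood at 40.2 and 40.5 FPKM with MK-8931, against 43.8 and 46.9 FPKM in controls. Mcm3 (chr1:20802968-20820312, minus strand) stood at 37.0 and 35.1 FPKM with MK-8931, against 40.5 and 43.3 FPKM in controls. For both genes the 2 MK-8931 libraries were the lower ones and the groups did not overlap. Neither difference passed the threshold, the log2 fold changes being -0.16 ± 0.120 for Mcm6 (SE, adjusted p = 0.731) and -0.21 ± 0.124 for Mcm3 (SE, adjusted p = 0.639). The other 4 subunits overlapped between groups, with fold estimates of 0.961 for Mcm5, 0.979 for Mcm4, 0.984 for Mcm7 and 1.01 for Mcm2.

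Although the 6 subunits form a single ring, their messenger RNA was not equal per length. In order of mean level over the 4 libraries came Mcm6 (42.8 FPKM), Mcm3 (39.0), Mcm5 (28.6), Mcm4 (24.4), Mcm7 (20.1) and Mcm2 (16.1). Mcm6 exceeded Mcm2 by 2.43 and 2.56 times in the MK-8931 libraries and by 3.00 and 2.66 times in controls. Mcm6 and Mcm3 came first and Mcm2 last in each library. The lengths are those in the file, which for Mcm2 is 6956 bases and for Mcm6 4666 bases, and the order depends on them. Cdc6 was far lower, at 3.43 and 2.47 FPKM with MK-8931 against 3.11 and 3.19 FPKM in controls. The MK-8931 replicates held its highest and its lowest value, with 352 and 240 counts, so its interval was wider (log2 fold change -0.09, 95% interval -0.58 to 0.41).

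The S phase group held the most abundant of the 33 genes, Pcna, which encodes the sliding clamp of DNA polymerase. Pcna (chr2:132249162-132253314, minus strand) had 3462 and 3633 counts with MK-8931 and 3662 and 5172 counts in controls, or 73.5 and 81.6 FPKM against 81.7 and 110.4 FPKM. Control 2 was the high library, and control 1 lay next to MK-8931 2. In FPKM both MK-8931 values were below both controls. In TMM-scaled CPM, by which overlap is counted here, MK-8931 2 (197.5 CPM) lay just above control 1 (197.2 CPM). The log2 fold change was -0.30 (SE 0.160, 95% interval -0.66 to 0.06, adjusted p = 0.582). Without control 1 it was -0.50 and passed the threshold (adjusted p = 0.0433), the only call among the 33 genes when each library was left out in turn. Lower calls made up 1.64% of all genes in that setting. Without control 2 it was -0.07 (adjusted p = 0.983). A pseudogene of the clamp, Pcna-ps2, had 792 and 858 counts with MK-8931 and 833 and 1321 counts in controls, up to 20.3% of the 2 genes' sum, so reads may be split between them and the value of Pcna is uncertain. Summed over both, the level was 218 and 244 CPM with MK-8931 and 242 and 332 CPM in controls, with control 2 again the highest.

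Ribonucleotide reductase makes deoxyribonucleotides from a large subunit, Rrm1, and a small subunit, Rrm2, whose abundance follows the cell cycle. Rrm2 stood at 25.8 and 26.2 FPKM with MK-8931 and 28.5 and 31.7 FPKM in controls. The groups did not overlap, yet the difference did not pass the test (log2 fold change -0.20, SE 0.135, adjusted p = 0.688). Rrm1 stood at 9.82 and 8.74 FPKM with MK-8931 and 9.43 and 9.43 FPKM in controls, with the controls between the 2 MK-8931 values. The ratio of Rrm2 to Rrm1 per length was 2.63 and 2.99 with MK-8931 and 3.03 and 3.36 in controls.

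The enzymes that supply thymidylate, Tyms (thymidylate synthase) and Tk1 (thymidine kinase 1), varied more between replicates than between groups. Tyms had 418 and 507 counts with MK-8931 and 352 and 636 counts in controls, so the controls were both the lowest and the highest. Tk1 stood at 10.7 and 12.7 FPKM with MK-8931 and 10.6 and 13.1 FPKM in controls. E2f1, a transcription factor that turns on S phase genes and is itself E2F-driven, stood at 18.01 and 17.92 FPKM with MK-8931 and 17.06 and 19.28 FPKM in controls, a fold estimate of 0.995 (95% interval 0.795 to 1.24). Uhrf1, which recruits the maintenance DNA methyltransferase to newly copied DNA, stood at 22.8 and 24.8 FPKM with MK-8931, against 22.2 and 22.3 FPKM in controls. Both MK-8931 libraries were above both controls, without passing (log2 fold change 0.11, SE 0.130, adjusted p = 0.856).

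Mitotic cyclins and kinases stood between 7.57 and 32.7 FPKM. Cdk1, the kinase that starts mitosis (chr10:69335146-69352938, minus strand), had 977 and 1008 counts with MK-8931 and 869 and 1280 counts in controls, so the controls enclosed the MK-8931 values. Its partner genes Ccnb1 and Ccnb2 encode B-type cyclins. Ccnb1 stood at 13.3 and 13.7 FPKM with MK-8931 and 15.3 and 15.2 FPKM in controls. Ccnb2 stood at 30.8 and 32.7 FPKM with MK-8931 and 27.2 and 32.3 FPKM in controls. The groups were apart for Ccnb1, with -0.17 ± 0.136 (SE, adjusted p = 0.746) as log2 fold change, and overlapped for Ccnb2 (0.10, SE 0.152, adjusted p = 0.890). Ccnb2 exceeded Ccnb1 per length by 2.33 and 2.39 times with MK-8931 and by 1.77 and 2.12 times in controls. Ccna2, the cyclin of S phase and early mitosis, stood at 20.5 and 20.4 FPKM with MK-8931 and 20.3 and 24.6 FPKM in controls, with control 2 above the other 3 libraries.

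Among the mitotic kinases, Plk1, which acts from centrosome maturation to cytokinesis, was the most abundant per length at 17.0 and 19.7 FPKM with MK-8931 and 15.6 and 20.8 FPKM in controls. Aurkb, the kinase of the chromosomal passenger complex, stood at 10.1 and 12.6 FPKM with MK-8931 and 11.4 and 11.4 FPKM in controls. Aurka, the spindle pole kinase, stood at 8.39 and 9.40 FPKM with MK-8931 and 7.57 and 9.55 FPKM in controls. For all 3 kinases the groups overlapped. The 95% intervals of the fold were 0.761 to 1.35 for Plk1, 0.767 to 1.30 for Aurkb and 0.775 to 1.41 for Aurka. The spindle checkpoint genes Bub1 and Bub1b had fold estimates of 0.982 and 0.978, with Bub1b ahead of Bub1 per length in each library.

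Spindle, kinetochore and mitotic exit genes gave the same picture of overlapping groups, with 1 exception. Cdc20 and Ube2c serve the anaphase-promoting complex, Cdc20 as its activator and Ube2c as its ubiquitin-conjugating enzyme. Cdc20 stood at 23.4 and 25.3 FPKM with MK-8931 and 21.4 and 30.4 FPKM in controls. Ube2c had 915 and 915 counts with MK-8931 and 840 and 1125 counts in controls. Control 2 was the highest and control 1 the lowest library for both genes. Birc5, which encodes survivin of the chromosomal passenger complex, had 594 and 736 counts with MK-8931 and 552 and 987 counts in controls. Its controls enclosed the MK-8931 values, and its interval was the widest downward of the 33 (fold 0.879, 95% interval 0.590 to 1.31).

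Tpx2, which activates Aurora A on the spindle, was the exception to the overlap, at 17.0 and 15.8 FPKM with MK-8931 and 17.4 and 19.2 FPKM in controls (log2 fold change -0.15, SE 0.136, adjusted p = 0.790). The kinesin genes Kif11, which pushes spindle poles apart, and Kif20a, which acts in cytokinesis, had the estimates 1.09 (95% interval 0.857 to 1.39) and 1.05 (0.834 to 1.33). Cenpe, a kinetochore motor, stood at 6.18 and 5.09 FPKM with MK-8931 and 6.74 and 6.22 FPKM in controls. On the TMM-scaled CPM, by which overlap is counted here, MK-8931 1 (53.7 CPM) lay just above control 2 (53.5 CPM), whereas in FPKM both MK-8931 values were the lower ones. Cenpf, a large kinetochore protein, was the least abundant of the 33 genes per length at 3.23 and 2.56 FPKM with MK-8931 and 3.05 and 2.72 FPKM in controls. The MK-8931 libraries held the highest and the lowest Cenpf value.

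Mki67, which encodes the proliferation marker Ki-67 at the surface of mitotic chromosomes, had more counts than any other of the 33 genes. The gene lies at chr7:135689784-135716361 on the minus strand. It had 7151 and 5176 counts with MK-8931 and 6902 and 5517 counts in controls. In both groups replicate 1 was the high library, and the group means of 324 ± 60.4 CPM with MK-8931 and 327 ± 63.5 CPM in controls (SD, n = 2) were close. The log2 fold change was -0.01 (95% interval -0.41 to 0.39, adjusted p = 0.993). Top2a, the topoisomerase that untangles chromosomes (chr11:98992943-99024189, minus strand), varied less, at 23.42 and 22.95 FPKM with MK-8931 and 21.97 and 21.90 FPKM in controls. Both MK-8931 libraries were the higher ones, and the fold estimate of 1.06 had a 95% interval of 0.883 to 1.28 (adjusted p = 0.872).

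Counted over the 33 genes, 23 fold estimates were below 0 on the log2 scale, which was so for 50.4% of all genes tested. Without control 2 the count was 14 of 33 (48.2% of all genes in that setting) with a median of 0.05, and without control 1 it was 26 of 33. It was 18 of 33 when scaled by library size alone and 27 of 33 without the low-count filter. Over all genes, the median log2 fold change also moved, from -0.00297 to 0.0233 for library size alone and to -0.0290 for unfiltered genes. In those settings the sign counts thus moved in the same direction as all genes. Without control 1 the all-gene median rose to 0.0184, whereas that of the 33 genes fell to -0.12. Groups that did not overlap were found for 2 genes with both MK-8931 libraries above both controls (Uhrf1 and Top2a), against 21.2% of all genes, and for 5 with both below (Mcm3, Mcm6, Rrm2, Ccnb1 and Tpx2), against 20% of all genes. Control 2 was the highest library for 19 of the 33 genes and for 29.9% of all genes tested, while control 1 was the lowest for 15 of the 33 and for 21.0% of all genes.

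**Figure D3:**
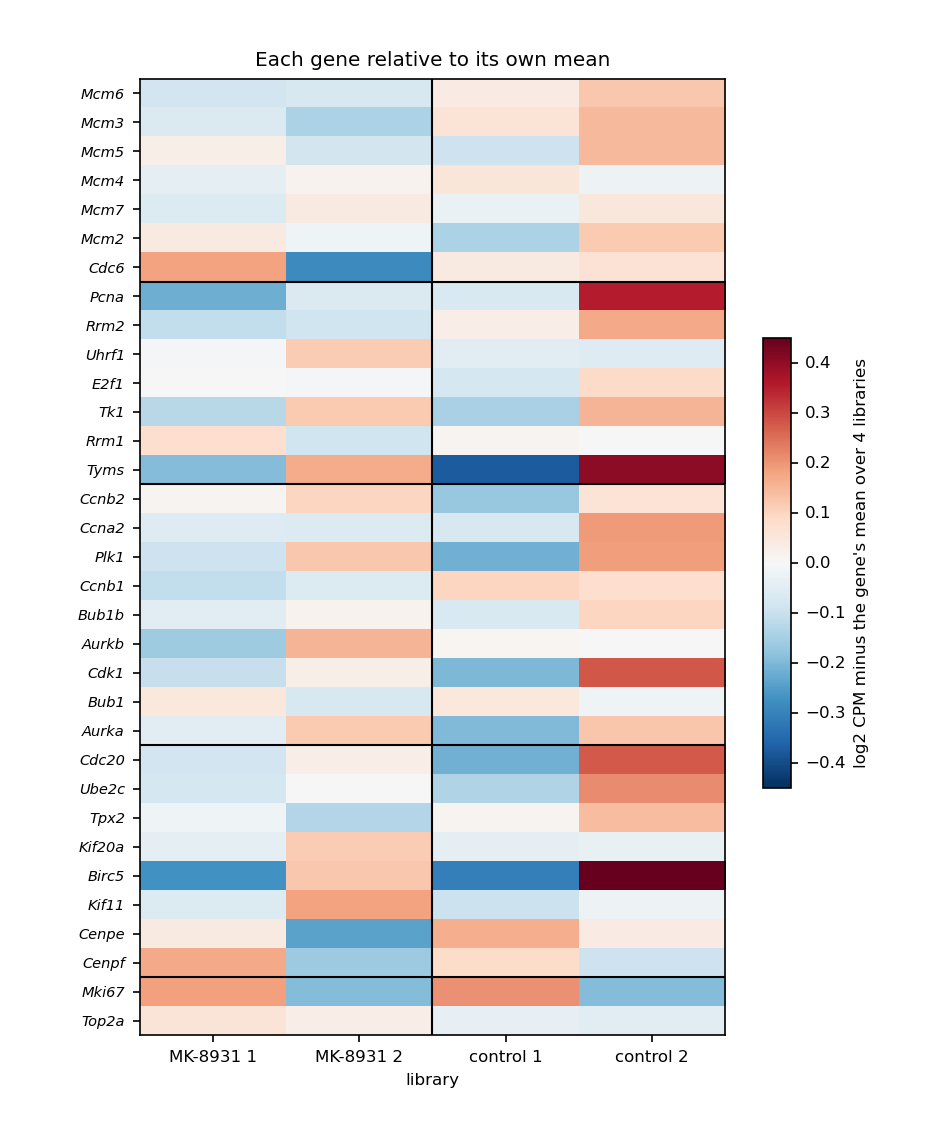
Log2 CPM of each gene in each library minus that gene's mean over the 4 libraries, with red above and blue below the mean, rows grouped by role as in the plot of levels. The control 2 column is mostly red, at its deepest in Birc5, Tyms and Pcna, whereas Mki67 is red in replicate 1 of both groups.

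The difference between replicates moved with gene length. The 5 longest genes, Cenpf (15433 bases), Rrm1 (11012), Mki67 (10061), Top2a (9013) and Cenpe (8620), were lower in replicate 2 than in replicate 1 in both groups, some of them only slightly. The log2 ratio of replicate 2 to replicate 1 was -0.38 with MK-8931 and -0.40 in controls for Mki67, and -0.33 with MK-8931 and -0.18 in controls for Cenpf. It was -0.17 with MK-8931 and -0.0116 in controls for Rrm1, and -0.0274 with MK-8931 and -0.0164 in controls for Top2a. The short genes Cdc20 (1868 bases) and Ccnb2 (1531) had positive ratios, of 0.11 with MK-8931 and 0.49 in controls for Cdc20 and of 0.09 with MK-8931 and 0.23 in controls for Ccnb2. Across the 33 genes, Spearman's rho between length and this ratio was -0.48 with MK-8931 and -0.46 in controls, and across the 7030 other genes in the same range of mean CPM it was -0.45 with MK-8931 and -0.56 in controls. These are descriptions across genes that share the same 4 libraries. Tyms stood off this line, with 6089 bases and ratios of 0.36 with MK-8931 and 0.78 in controls.

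**Figure D4:**
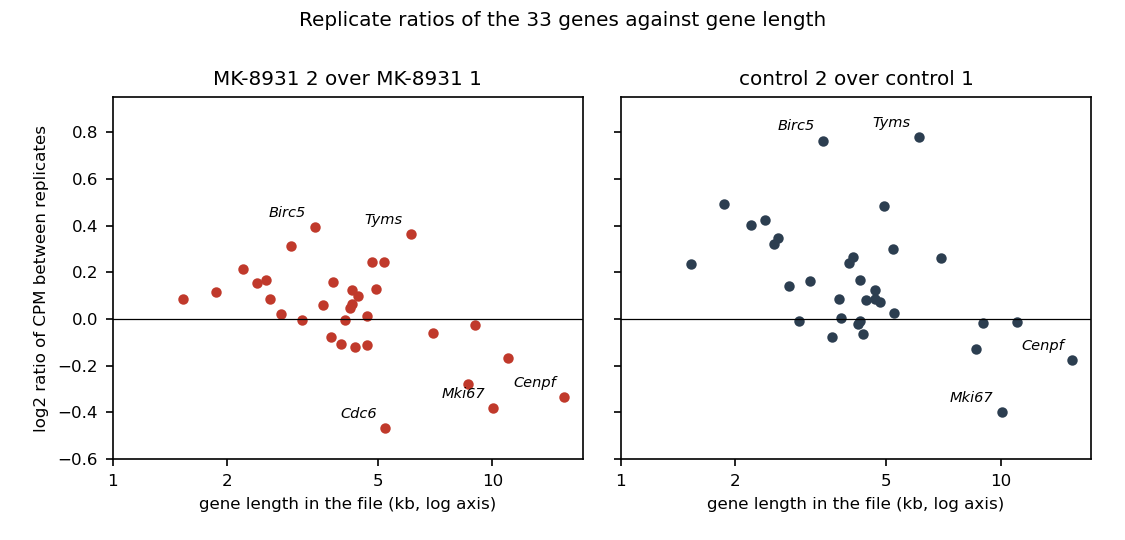
Log2 ratio of CPM in replicate 2 over replicate 1 against gene length (kb, log axis), 1 point per gene, with the MK-8931 pair on the left and the control pair on the right. The 5 longest genes, from Cenpe to Cenpf, lie below 0 in both panels, Rrm1 and Top2a close to it in controls, and Birc5 and Tyms lie above.

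The balance of the waves was also compared. Licensing and S phase genes summed to 333 and 342 FPKM with MK-8931, against 346 and 400 FPKM in controls. The mitotic groups summed to 230 and 244 FPKM with MK-8931 and to 224 and 267 FPKM in controls. The ratio of the first sum to the second was 1.45 and 1.40 with MK-8931 and 1.546 and 1.496 in controls. Both MK-8931 ratios were below both control ratios, and with 2 libraries a group no exact test of these 4 values can pass 0.05. Pcna alone, whose value is uncertain, gave 73.5 and 81.6 FPKM of the first sum with MK-8931 and 81.7 and 110.4 FPKM in controls. With Pcna left out of the first sum, the ratio of MK-8931 1 lies above that of control 2. The separation of the groups in this ratio thus rests on Pcna. Across the 33 genes, the lowest Pearson r of log2 FPKM between any pair of libraries was 0.973, with some neighbours changing places. Mki67, for example, stood above Ccnb2 in control 1 (36.7 against 27.2 FPKM) and below it in control 2 (28.1 against 32.3 FPKM).

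The promoters of these genes were searched for the sequence elements that the waves are known for. They are shown for the most abundant gene of each of the 5 roles that has an entry in the RefSeq promoter table, since E2F-type letters and the cell cycle homology region (CHR), which MuvB reads, mark G1/S and G2/M genes. The table held windows of 300 bases, 250 before to 50 after a start, for 28 of the 33 genes. Each window is from RefSeq on GRCm38.p6, 5′ to 3′ on the gene's strand, at chr1:128359656-128359955 for Mcm6, chr2:132253131-132253430 for Pcna, chr9:70421505-70421804 for Ccnb2, chr4:118437294-118437593 for Cdc20 and chr7:135716330-135716629 for Mki67, all on the minus strand. Capitals mark every match on either strand to the E2F-type letters GCGGGAA, with the related spelling GCGCGAA and the shifted spelling GGCGGGA (which can overlap the first), to the CHR letters TTTGAA, with the related spelling TTCGAA, and to the box spelled CCAAT.
Mcm6: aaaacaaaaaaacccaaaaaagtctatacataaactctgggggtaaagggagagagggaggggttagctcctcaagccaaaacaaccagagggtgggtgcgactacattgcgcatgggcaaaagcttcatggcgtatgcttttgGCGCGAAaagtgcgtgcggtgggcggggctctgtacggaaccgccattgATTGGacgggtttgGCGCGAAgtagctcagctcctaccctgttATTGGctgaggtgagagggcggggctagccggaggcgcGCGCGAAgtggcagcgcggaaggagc
Pcna: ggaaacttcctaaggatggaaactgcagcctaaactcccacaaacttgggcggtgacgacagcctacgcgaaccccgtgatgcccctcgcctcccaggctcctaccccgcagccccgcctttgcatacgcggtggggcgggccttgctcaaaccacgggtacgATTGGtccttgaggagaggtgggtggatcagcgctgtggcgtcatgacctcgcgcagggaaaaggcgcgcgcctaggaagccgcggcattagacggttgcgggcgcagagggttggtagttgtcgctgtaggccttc
Ccnb2: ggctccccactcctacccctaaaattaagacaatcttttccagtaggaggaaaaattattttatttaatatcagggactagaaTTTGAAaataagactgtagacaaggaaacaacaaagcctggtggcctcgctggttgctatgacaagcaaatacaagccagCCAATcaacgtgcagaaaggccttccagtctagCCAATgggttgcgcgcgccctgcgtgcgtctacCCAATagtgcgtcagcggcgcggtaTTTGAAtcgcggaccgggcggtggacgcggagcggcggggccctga
Cdc20: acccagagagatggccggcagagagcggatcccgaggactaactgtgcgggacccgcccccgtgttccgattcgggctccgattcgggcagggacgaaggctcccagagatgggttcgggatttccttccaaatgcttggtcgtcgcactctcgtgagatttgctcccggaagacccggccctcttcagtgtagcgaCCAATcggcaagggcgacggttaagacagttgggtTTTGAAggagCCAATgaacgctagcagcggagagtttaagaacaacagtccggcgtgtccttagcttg
Mki67: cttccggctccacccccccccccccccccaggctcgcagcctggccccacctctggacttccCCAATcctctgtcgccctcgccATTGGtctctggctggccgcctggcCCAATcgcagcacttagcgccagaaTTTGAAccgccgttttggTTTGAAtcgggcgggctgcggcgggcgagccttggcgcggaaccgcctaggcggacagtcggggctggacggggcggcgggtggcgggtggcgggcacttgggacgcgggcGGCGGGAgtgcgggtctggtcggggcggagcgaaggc

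The Mcm6 window held 3 matches to GCGCGAA and no CHR letters. The Pcna window held a CCAAT box on its reverse strand and neither of the others. The windows of Ccnb2 and Cdc20 held TTTGAA and CCAAT but none of the E2F-type letters, and that of Mki67 held all 3 kinds. E2F-type letters were in 9 of 15 windows of licensing and S phase genes (60.0%) and in 4 of 13 windows of the mitotic groups (30.8%), against 14.4% of the 32851 windows of all genes. Within the first share, E2F-type letters were in 6 of 7 licensing windows (85.7%) and in 3 of 8 S phase windows (37.5%). The 15 windows belong to 13 genes, since Uhrf1 and Mcm7 have 2 windows each, both with E2F-type letters. CHR letters were in 2 of 15 windows (13.3%) of the licensing and S phase genes and 10 of 13 windows (76.9%) of the mitotic groups, against 19.2% of all windows. The windows of E2f1, Tk1 and Tyms held none of the 3 kinds as spelled here, and other spellings were not searched. The E2f1 window (chr2:154569377-154569676, minus strand) lies inside the gene, whose end is at 154569892. CCAAT was in 25 of the 30 windows of these genes (83.3%), against 37.4% of all. A match is a run of letters only and says nothing of a bound factor. Neither group of genes moved with MK-8931 by the test, with median log2 fold changes of -0.06 for licensing, -0.01 for the S phase group, -0.03 for mitotic cyclins and kinases and -0.08 for spindle, kinetochore and mitotic exit genes.

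Other genes of the cycle were read from 7 lists holding 156 genes that are not among the 33, of which 155 were tested. In these lists 0 genes rose and 1 fell, against 0.861% and 0.136% of all genes tested. The median log2 fold change was -0.08, beside -0.00297 over all genes tested. Of 33 other G1/S genes and 40 other G2/M genes, 0 passed in either direction, with medians of -0.10 and -0.09. The smallest p-values among G1/S genes belonged to Ung, the uracil-DNA glycosylase, at 13.4 and 13.4 CPM with MK-8931 and 17.4 and 21.9 CPM in controls (adjusted p = 0.343), and to Cdca7, a cofactor of the chromatin remodeller Hells, at 19.2 and 19.6 CPM with MK-8931 and 13.9 and 13.9 CPM in controls (adjusted p = 0.383). Among G2/M genes they belonged to Cenpa, the centromeric histone variant (log2 fold change -0.42, adjusted p = 0.379), and Anp32e, a histone chaperone (-0.27, adjusted p = 0.533). Of 27 origin and fork proteins 0 passed, with a median of -0.05. The smallest p-values there were those of Dbf4, the activating subunit of the Cdc7 kinase (-0.30, adjusted p = 0.569), and Rpa3, a subunit of the single-strand binding protein (0.52, adjusted p = 0.595).

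Regulators upstream of these waves also stayed below the threshold. Of 14 G1 cyclins, CDKs and their inhibitors 0 passed, with a median of -0.08. Ccnd3, which encodes the D-type cyclin D3, stood at 68.2 and 76.4 CPM with MK-8931 and 48.9 and 48.2 CPM in controls. Both MK-8931 libraries were above both controls, and the log2 fold change was 0.57 ± 0.142 (SE, adjusted p = 0.129). Ccnd3 passed when low counts were not filtered (adjusted p = 0.0408). Cdkn1b, which encodes the CDK inhibitor p27, stood at 61.0 and 76.2 CPM with MK-8931 and 56.2 and 49.8 CPM in controls (log2 fold change 0.37, adjusted p = 0.451). Other genes of the list were chosen after their values were seen. The widely expressed Ccnd1 (cyclin D1), Cdk4 and Cdkn1a (p21) had log2 fold changes of -0.13, -0.08 and -0.08 (adjusted p from 0.801 to 0.921). Cdkn2a, which encodes the inhibitors p16 and p19, had 23 and 29 counts with MK-8931 and 58 and 52 counts in controls, with the groups apart but an adjusted p of 0.469.

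Of 17 E2F, pocket protein and MuvB genes 0 passed, with a median of -0.01. The smallest p-values were those of the MuvB subunits Lin54 (-0.26, adjusted p = 0.665) and Lin37 (0.30, adjusted p = 0.763). Of 13 checkpoint genes 0 passed as well, with a median of -0.10. Wee1, the kinase that holds Cdk1 inactive, was at -0.26, and Cdc25b, a phosphatase that activates it, was at -0.24, both with an adjusted p of 0.637. Of 11 tested p53 targets 0 rose and 1 fell, against 0.861% and 0.136% of all genes tested, with a median of -0.10. The gene that fell was Plk2, a stress-induced polo-like kinase. Plk2 stood at 288 and 225 CPM with MK-8931 and 447 and 531 CPM in controls. Its log2 fold change was -0.93 (SE 0.158, adjusted p = 0.0355). Both MK-8931 libraries lay below both controls, and the call was lost without MK-8931 2, at a log2 fold change of -0.78 (adjusted p = 0.232).

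**Figure D5:**
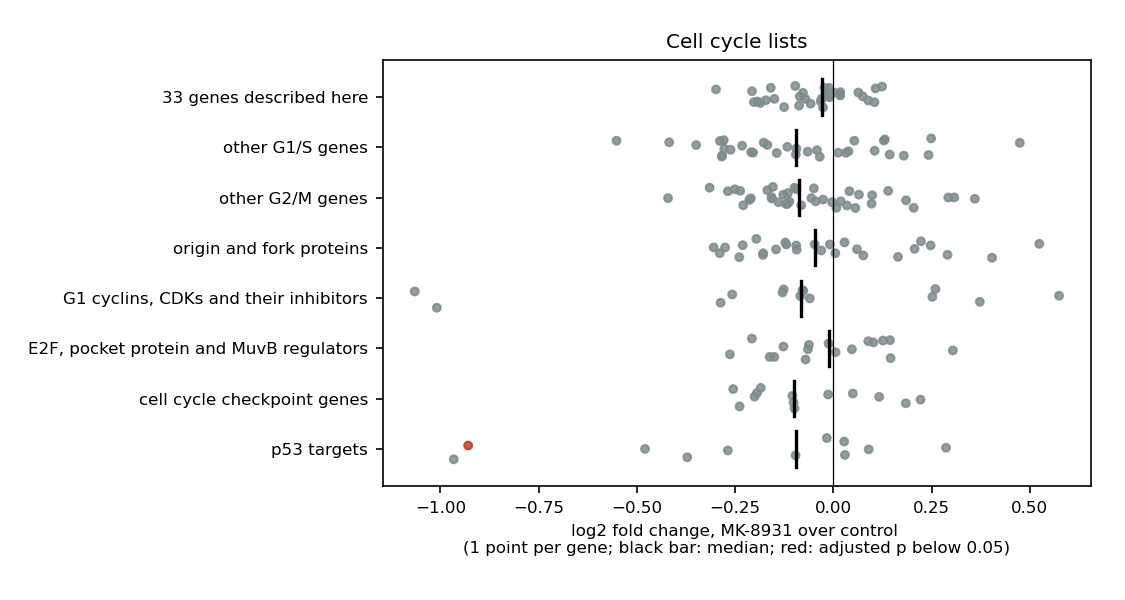
Log2 fold change, MK-8931 over control, of the 33 genes and of the tested genes in each of the 7 further lists, 1 point per gene, with a black bar at the list's median and red for an adjusted p below 0.05. The 33 genes lie between -0.30 and 0.12, and the only red point is Plk2 among the p53 targets.

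Markers of other cells that the sort could hold were summed beside the 33 genes. The 10 markers of T and NK cells summed to 27.4 and 29.6 CPM with MK-8931 and 37.7 and 48.8 CPM in controls, nearly all of it Cd4, while Nkg7, Ncr1, Klrb1c and Gzma were at 0 counts in all 4 libraries. The 5 B cell markers summed to 7.64 and 12.2 CPM with MK-8931 and 7.32 and 8.07 CPM in controls, mostly Cd79b. The 7 erythroid markers summed to at most 0.613 CPM in any library. Endothelial, pericyte and fibroblast markers summed to 462 and 679 CPM with MK-8931 and 465 and 214 CPM in controls, led by Col1a1 and Col1a2. Of 14 neural and glial markers, Olig1, Olig2, Sox2 and Dcx were at 0 counts in all libraries, and the sum was 147 and 166 CPM with MK-8931 and 203 and 199 CPM in controls, led by Nes and Mbp. Monocyte markers summed to 381 and 440 CPM with MK-8931, against 168 and 99.1 CPM in controls, dendritic cell markers to 21.2 and 30.3 CPM against 13.3 and 11.1 CPM, and microglial markers to 1832 and 2058 CPM against 2225 and 2646 CPM. By edgeR's test, 4 of 6 monocyte markers passed as higher, as did 1 of 10 macrophage markers, against 0.861% of all genes tested. Of the tested microglial and dendritic cell markers 0 passed in either direction. The part of all these other cells in the levels of the 33 genes was not tested.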

How the data were processed

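Total RNA was sequenced from 4 libraries of sorted macrophages, 2 per group by their titles. The authors deposited whole-number read counts for each gene. They also deposited FPKM, named so in the file headers, which equalled the count times a library constant over gene length. The submitters' processing notes name CASAVA and mm9; the coordinates of 32 of the 33 genes equal those of GENCODE M21 on GRCm38. Aligner, counter, use of strand and handling of human tumour reads: not given in the sources used here. Some genes overlap others on the opposite strand, such as Mcm7 and Cops6, Ccna2 and Exosc9, Cdc20 and Elovl1, and Kif20a and Cdc23, so their reads may be shared. A further 4 columns of per-library values were not used.

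Genes passing filterByExpr (minimum count 10) were tested in edgeR 4.0.16 (R 4.3.3). Libraries were scaled by TMM (factors 0.971 to 1.01). MK-8931 was compared with control by glmQLFit and glmQLFTest with robust dispersions, two-sided, with Benjamini-Hochberg adjustment over 13932 genes and a threshold of 0.05. SE is the absolute log2 fold change over the square root of F, and 95% intervals use the test's degrees of freedom. The scripts were tested on simulated data. Replicates differed by more than counting error, with a chi-square of 15.7 (MK-8931) and 26.8 (control) per degree of freedom. They are thus not repeat sequencing of a single library. The chi-square cannot tell separate animals from separate preparations of the same RNA. The 33 genes, the lists and the tests were chosen with earlier results of these data known. All 33 genes are named, with the 2 smallest p-values of each further list or, where genes passed, those that passed. Outside this rule, Ccnd1, Cdk4, Cdkn1a, Cdkn2a and Phlda3 were named after their values were seen. Alternatives were DESeq2 1.42.0, limma-voom (limma 3.58.1), other scaling and filters, each library left out, and the replicate number as a block.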

Additional observations from a re-analysis of the deposited data

How the results depend on the processing

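The number of the 33 genes called, 0 higher and 0 lower, was the same in each alternative except without control 1 (range 0 to 1 lower over the libraries left out). Counts over all genes moved. Against 120 higher and 19 lower, DESeq2 gave 266 and 96, limma-voom 30 lower, no filter 366 and 176, and the replicate block 468 and 275, while leaving out a library gave 85 to 520 higher and 10 to 243 lower. In the further lists, no filter and the replicate block each gave 1 higher (Ccnd3) and 2 lower (Plk2 and Phlda3, with Phlda3 named after its values were seen), all in the G1 and p53 lists, and leaving out a library gave 0 to 1 lower. The numbers 1 and 2 are shared by only 2 pairs and no label ties them to an animal or batch. Replicate deviations of the groups correlated at r = 0.67 over the 33 genes, 0.45 over the 7030 other genes in their range of mean CPM and 0.18 over all genes. Under the block the lowest adjusted p among the 33 genes was 0.116, and that of Ccnd3 was 0.00992.

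Leaving out each library moved the median log2 fold change of the 33 genes from -0.12 to 0.052. The medians ran from -0.14 to -0.051 for checkpoint genes, -0.078 to 0.049 for E2F and MuvB genes, -0.17 to 0.015 for G1 regulators, -0.19 to 0.053 for G1/S genes, -0.15 to 0.036 for G2/M genes, -0.11 to 0.01 for origin and fork proteins, -0.26 to -0.055 for p53 targets and -0.13 to 0.017 for all 7 lists. The sign of many small, uncalled estimates turned. With a library left out, the log2 fold change ran from -0.12 to 0.15 for Mcm2, -0.072 to 9.3e-04 for Mcm4, -0.18 to 0.066 for Mcm5, -0.086 to 0.018 for Mcm7, -0.35 to 0.12 for Cdc6, -0.11 to 0.054 for Rrm1, -0.42 to 0.37 for Tyms, -0.16 to 0.15 for Tk1, -0.10 to 0.076 for E2f1, -0.33 to 0.16 for Cdk1, -0.26 to 0.012 for Ccna2, -0.016 to 0.23 for Ccnb2, -0.10 to 0.23 for Aurka, -0.18 to 0.14 for Aurkb, -0.18 to 0.23 for Plk1, -0.10 to 0.020 for Bub1, -0.12 to 0.052 for Bub1b, -0.53 to 0.24 for Birc5, -0.17 to 0.16 for Cenpf, -0.017 to 0.23 for Kif11, -0.019 to 0.14 for Kif20a, -0.26 to 0.10 for Ube2c, -0.31 to 0.19 for Cdc20 and -0.22 to 0.19 for Mki67. With library size alone it was 0.00446 for Mcm7, 0.012 for Rrm1, 0.019 for Tk1, 0.021 for E2f1 and 0.011 for Mki67. Aurkb stood at -0.00328 with DESeq2 size factors, -0.00325 with DESeq2, -0.00979 with limma-voom, -0.020 with no filter and -0.00665 with the replicate block. With no filter Mcm2 stood at -0.0046, Plk1 at -0.0049 and Cenpf at -0.00286. The cause was not tested. With 2 libraries per group, the median SE of the log2 fold change was 0.148 over the 33 genes, which limits the size of change that could be detected.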
